A study of Rattus norvegicus with 6 samples.

Results

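The immunoproteasome and the class I peptide-loading machinery are represented here by 9 genes: Psmb8, Psmb9, Psmb10, Psme1, Psme2, Tap1, Tap2, Tapbp and B2m. All probe sets whose single array gene symbol is one of these names were taken, which gave 12 probe sets of 31042. Psme1, Tap1 and B2m have more than 1 probe set, and the one with the highest mean signal over the 6 arrays stands for the gene. The choice of genes reads gene names and no measured values, although these genes were proposed with earlier results of the data known. The choice among probe sets of a gene reads the mean signal over the 6 arrays, without regard to strain.

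Kidney RNA was measured on 6 Affymetrix arrays, 1 per adult male rat. The S group is 3 inbred Dahl salt-sensitive rats (SS/Jr), a strain that becomes hypertensive. The congenic group is 3 rats of the strain S.LEW.D1MCO4x1x3Bx1, which has S as its background and, by its name, carries a piece of the Lewis genome taken from chromosome 1. The series, by its title, belongs to work on Adamts16 variants in hypertension; the sources used here give neither the diet, the exact age nor the ends of the Lewis segment. All 9 genes lie on other chromosomes in the rat reference GRCr8, namely 3, 15, 19 and 20. Array medians ran from 162 to 178 signal units, and Spearman correlations across probe sets were 0.947 to 0.961 within a strain and 0.946 to 0.961 between strains. Of 12 kidney cell markers, 11 had a probe set and all 11 passed the filter on low signals. Of these, 7 were higher on average in congenic kidneys, beside 48.2% of all 15521 probe sets past that filter. Their median log2 difference was 0.12, the same as that of the 8 tested genes of the group. At limma's unadjusted p below 0.05, 1 was higher (Umod, 0.25) and 1 lower (Slc12a1, -0.26), beside 4.72% and 5.61% of those probe sets.

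Cells cut cytosolic proteins with the proteasome and show the fragments on class I molecules to T cells. Under interferon, the subunits encoded by Psmb8, Psmb9 and Psmb10 replace the constitutive catalytic subunits encoded by Psmb5, Psmb6 and Psmb7, and the activator ring made from the Psme1 and Psme2 products caps the proteasome core. The Tap1 and Tap2 products form the transporter that moves peptides into the endoplasmic reticulum, the Tapbp product tapasin bridges it to class I molecules, and beta-2-microglobulin, from B2m, is the light chain of every class I molecule. In kidney, tubular, endothelial and resident immune cells can all make these proteins. The arrays read whole kidney, so fewer cells of a type and less RNA per cell cannot be told apart.

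No gene of the group passed the test between strains. In limma, 0 of 8 tested genes had an adjusted p below 0.05, with values from 0.482 to 0.917; the same was true of 0% of all 15521 probe sets tested. The gene not tested there, Tap2, lay under the filter on low signals, and the filter bore on both transporter genes. Tap1 had a geometric mean of 161 in S and 218 in congenic rats, on either side of the filter at 165, so it passed through its congenic values; Tap2, with 177 and 140, fell under it through its congenic values. All 9 genes were therefore counted in a fit with the filter off. There, signals averaged higher in congenic kidneys for 7 of 9 genes, where 46.1% of all 31042 probe sets lay above 0; under quantile normalisation and cyclic loess B2m changed sign. The median log2 difference of the 9 genes, congenic minus S, was 0.07, beside -0.02 for all probe sets, and the differences ran from -0.34 for Tap2 to 0.44 for Tap1. At unadjusted p below 0.05, 1 of the 9 was higher (Psmb9) and 0 lower, where 3.66% of probe sets were higher and 4.27% lower. The 3 congenic values lay all above the 3 S values for Psmb9 alone among the 9, and for none all below, where 6% of probe sets were non-overlapping and higher and 7.18% non-overlapping and lower. Among the tested probe sets, the reference for the lists of other genes further on, 48.2% were positive and the median was -0.01, with 4.72% higher and 5.61% lower at unadjusted p below 0.05 (732 and 870) and 7.98% and 7.99% non-overlapping. With arrays centred on their medians that split of 732 and 870 was 1472 higher and 386 lower.

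**Figure D1:**
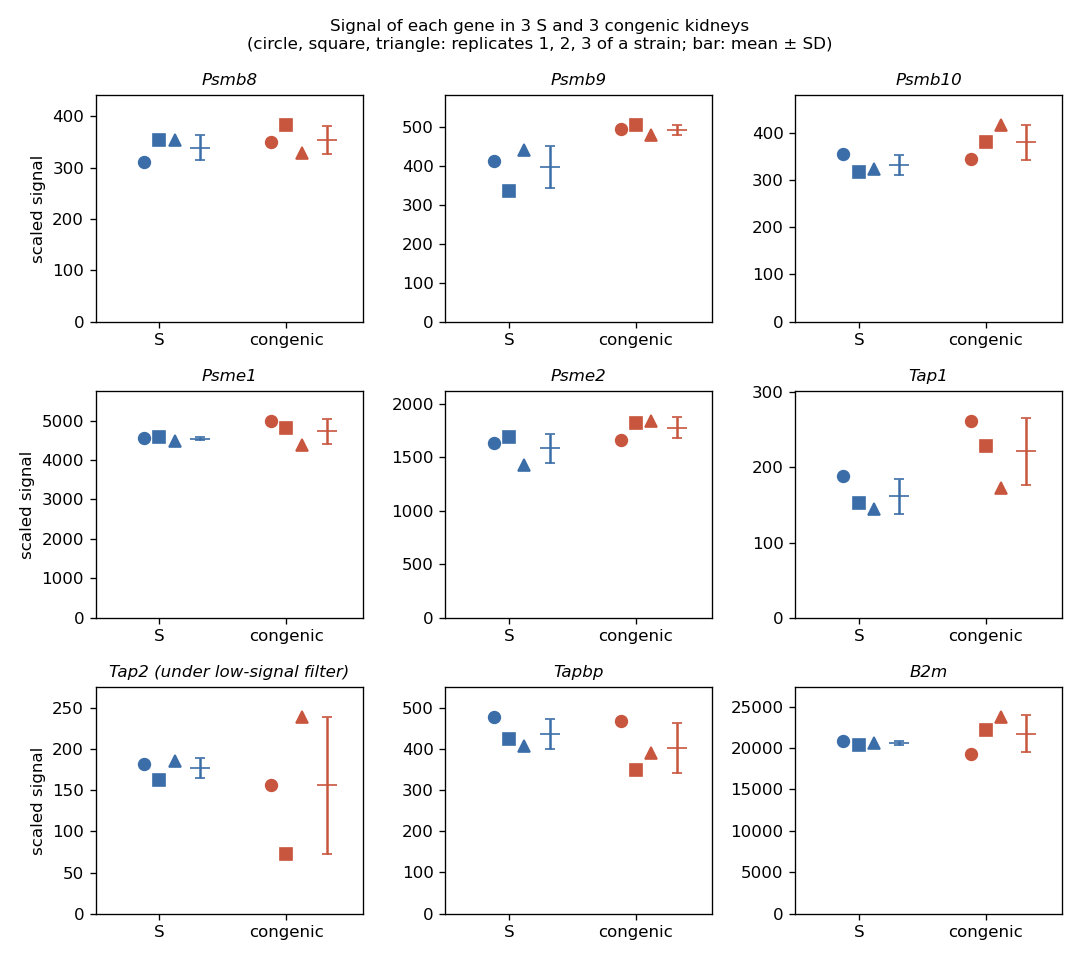
Scaled signal (linear vertical axes from 0) of the 9 genes in each S and congenic kidney, with the mean and SD of each strain beside the points; circles, squares and triangles are replicates 1, 2 and 3 of a strain and do not pair rats across strains. The Psmb9 points of the 3 congenic rats sit above those of all 3 S rats, and the strains overlap for the other genes shown.

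Psmb9 and Tap1 are neighbours and had the highest differences of the group, Tap1 near the low-signal filter. Their starts face away from each other, 457 bases apart in RefSeq's GRCr8 annotation. The 250 bases upstream of each start are shown for this pair, for Tapbp, whose difference was negative, and for B2m, whose product every class I molecule needs. Capitals mark matches, on either strand, to the interferon-stimulated response element (ISRE, searched as GAAANNGAAA), the gamma-activated site (GAS, TTCNNNGAA) and the kappaB consensus. All are written 5′ to 3′ on the gene's own strand and come from RefSeq, build GRCr8.
Psmb9, chr20:4668750-4668999, plus strand: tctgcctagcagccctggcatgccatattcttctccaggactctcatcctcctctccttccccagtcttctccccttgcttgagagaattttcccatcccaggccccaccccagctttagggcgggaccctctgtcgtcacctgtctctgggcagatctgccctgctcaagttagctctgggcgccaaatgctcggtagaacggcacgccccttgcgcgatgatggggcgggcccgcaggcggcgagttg
Tap1, chr20:4668544-4668793, minus strand: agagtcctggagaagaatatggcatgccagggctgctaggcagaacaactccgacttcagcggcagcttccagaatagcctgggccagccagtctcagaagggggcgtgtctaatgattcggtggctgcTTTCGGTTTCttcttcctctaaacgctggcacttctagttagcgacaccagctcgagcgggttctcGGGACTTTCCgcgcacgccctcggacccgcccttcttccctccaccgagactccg
Tapbp, chr20:4967878-4968127, minus strand: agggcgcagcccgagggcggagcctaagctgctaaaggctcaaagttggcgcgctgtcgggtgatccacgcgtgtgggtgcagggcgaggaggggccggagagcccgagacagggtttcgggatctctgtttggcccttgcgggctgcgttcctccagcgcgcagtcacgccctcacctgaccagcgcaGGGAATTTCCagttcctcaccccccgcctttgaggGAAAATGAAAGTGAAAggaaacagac
B2m, chr3:129549080-129549329, plus strand: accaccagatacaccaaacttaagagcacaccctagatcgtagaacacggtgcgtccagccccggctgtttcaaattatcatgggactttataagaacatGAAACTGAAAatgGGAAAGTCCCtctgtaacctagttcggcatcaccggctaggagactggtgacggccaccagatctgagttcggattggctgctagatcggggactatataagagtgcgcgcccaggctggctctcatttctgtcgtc

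The Tap1 and Psmb9 windows overlap by 44 bases. The Tap1 window held 1 ISRE match and 1 kappaB match, and the Psmb9 window none of the 3 motifs. Tapbp had 2 ISRE matches that overlap each other and 1 kappaB match, and B2m had 1 of each. All 9 genes matched an entry in the promoter table. An ISRE match lay upstream of 6 of them, namely Psmb10, with 2, Psme2, Tap1, Tap2, Tapbp and B2m, whereas 3.41% of the 33469 promoters in the table had one in a window of the same length. A kappaB match occurred in 3 of the 9, against 4.24% of all promoters, and a GAS match in Psmb8 alone, against 7.67%. The 6 genes with an ISRE match in the window had a median log2 difference of 0.12 with 4 positive. The 3 without one there, Psmb9 among them, had a median of 0.06 with 3 positive. For Psmb9 this grouping depends on the window length. A match describes letters in a window and not a bound site.

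Among the catalytic subunits, Psmb9 (beta1i, low-molecular-mass protein 2) read 414, 337 and 441 in the S rats and 495, 506 and 479 in the congenic rats. All congenic values lay above all S values, and the congenic rats were close together, with a coefficient of variation of 2.74% against 13.5% in S. The means were 397 ± 53.6 and 493 ± 13.5 (SD, n = 3 each), a fold of 1.25. On the log2 scale the difference was 0.32 (standard error 0.15, 95% interval 0.0011 to 0.64); limma gave an unadjusted p of 0.0493 and an adjusted p of 0.482, and the exact 2-sided permutation test gave p = 0.10, the smallest that 3 against 3 allows. The unadjusted p stayed below 0.05 without S replicate 3 (0.0319) and was 0.0537 without S replicate 1, 0.209 without S replicate 2, 0.0915, 0.107 and 0.0673 without congenic replicates 1, 2 and 3, and 0.0549 with the number that opens each array title as a covariate. Without S replicate 2, the lowest Psmb9 value, the log2 difference was 0.21.

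Psmb8 (beta5i, low-molecular-mass protein 7), which lies next to Tap1 on chromosome 20, read 310.2, 353 and 353 in S and 349.5, 383 and 329 in congenic rats. The strains overlapped, with the lowest value in S replicate 1 and the highest in congenic replicate 2. The means were 339 ± 24.6 and 354 ± 27.0, the log2 difference was 0.06 with a 95% interval of -0.28 to 0.40, and limma's adjusted p was 0.917. With 1 rat left out the difference ran from 0.0015, without S replicate 1, to 0.11, without congenic replicate 3. Psmb10 (beta2i, also called MECL-1), on chromosome 19, read 355, 316 and 322 in S and 343, 379 and 416 in congenic rats. Congenic replicates 2 and 3 lay above every S rat and congenic replicate 1 lay within the S range. Its log2 difference was 0.19 with an interval of -0.15 to 0.53 (limma, adjusted p = 0.695; exact permutation p = 0.20).

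The constitutive counterparts were compared as a reference. Psmb5, which the Psmb8 product replaces, averaged 5247 ± 311 in S kidneys and 5091 ± 182 in congenic ones, and its log2 difference was -0.04 (limma, adjusted p = 0.884). Psmb7, which the Psmb10 product replaces, averaged 3219 and 3521, a difference of 0.13 (adjusted p = 0.605). No probe set with Psmb6 as its only symbol was matched here, so Psmb9 has no counterpart value. Ratios taken within each array cannot be moved by scaling between arrays, and 5 of them, chosen after the data were seen, were compared. The log2 ratio of Psmb8 to Psmb5 was 0.11 higher in congenic kidneys on average and that of Psmb10 to Psmb7 0.07 higher (exact permutation p = 0.50 and 0.80; adjusted over the 5 ratios, 0.62 and 0.80). The ratio of Psmb9 to Psmb8 was 0.26 higher (exact permutation p = 0.20, adjusted 0.62); relative to its mean over the 6 rats, this log2 ratio was 0.06, -0.42 and -0.03 in S and 0.15, 0.05 and 0.19 in congenic rats, so that S replicate 1 overlapped the congenic range.

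**Figure D2:**
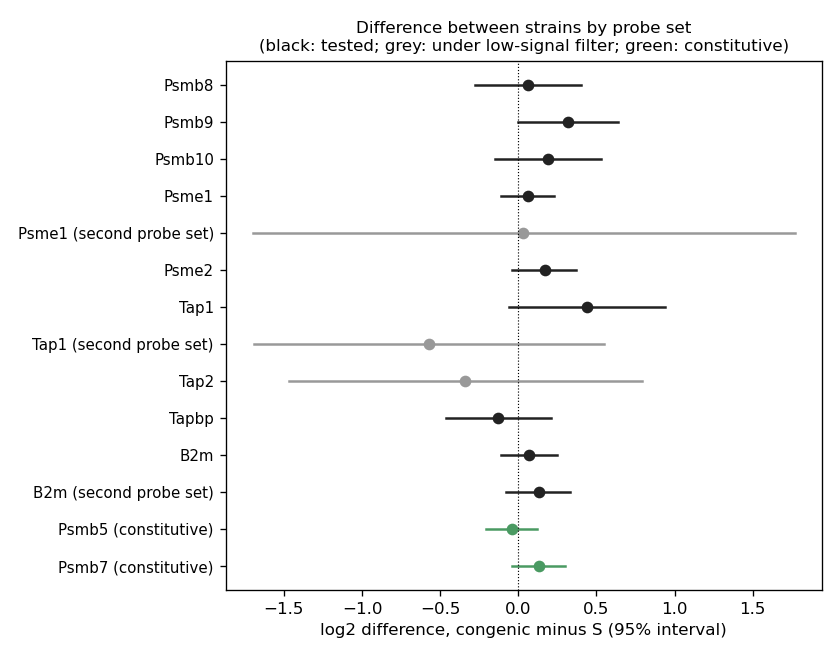
Log2 difference, congenic minus S, with its 95% interval from limma, for the 12 probe sets of the 9 genes and for Psmb5 and Psmb7. Of these, the interval of Psmb9 alone lies above 0, starting at 0.0011, and the intervals of the 3 probe sets under the low-signal filter are the widest.

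The activator genes Psme1 and Psme2 (PA28 alpha and beta) sit on chromosome 15 with a single protein-coding gene, Emc9, between them. Psme1 read 4559, 4573 and 4492 in S and 4994, 4821 and 4384 in congenic rats. The S rats lay within a narrow range, with a coefficient of variation of 0.961% against 6.64% in congenic rats, and congenic replicate 3 was below all of them. The log2 difference was 0.06 with an interval of -0.11 to 0.23 (limma, adjusted p = 0.830); it was 0.02 without congenic replicate 1 and 0.11 without congenic replicate 3. Psme2 read 1633, 1693 and 1433 in S and 1665, 1824 and 1842 in congenic rats. S replicate 3 was the lowest, and congenic replicate 1 fell between S replicates 1 and 2. The means were 1586 ± 136 and 1777 ± 97.3, a log2 difference of 0.17 with an interval of -0.04 to 0.37 (limma, adjusted p = 0.577); without S replicate 3 the difference was 0.09. The log2 ratio of Psme2 to Psme1 within arrays was 0.11 higher in congenic kidneys (exact permutation p = 0.40, adjusted 0.62). The other Psme1 probe set, under the filter on low signals, ranged from 26.3 to 124 in S and from 44.6 to 111 in congenic rats, a log2 difference of 0.03 with an interval of -1.70 to 1.77.

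Tap1 encodes a chain of the peptide transporter, and its signals lay near the low-signal filter, below it on average in S. It read 188, 153 and 144 in S and 262, 229 and 173 in congenic rats. Congenic replicates 1 and 2 exceeded every S rat, while congenic replicate 3 was below S replicate 1. The means were 162 ± 23.5 and 221 ± 45.1, a fold of 1.36 with an interval of 0.96 to 1.92. On the log2 scale the difference was 0.44 (standard error 0.23; limma, unadjusted p = 0.0811, adjusted p = 0.535; exact permutation p = 0.20). It ranged from 0.31 without congenic replicate 1 to 0.61 without congenic replicate 3. The other Tap1 probe set had the opposite sign, -0.57 with an interval of -1.69 to 0.55, but its values of 12.1, 38.1 and 13.8 in S and 5.19, 8.50 and 13.1 in congenic rats lay at or near the floor of 12.3 except in S replicate 2.

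Tap2, the partner of Tap1 in the transporter and the gene beside Psmb8, read 182, 163 and 186 in S and 157, 72.5 and 239.8 in congenic rats. The congenic rats held both the lowest and the highest value, and their coefficient of variation was 53.4% against 6.86% in S. Fitted with the filter off, its log2 difference was -0.34 with an interval of -1.47 to 0.79 and adjusted p = 0.857 (limma). Leaving out congenic replicate 2 turned the sign, to 0.14, and the difference was -0.73 without congenic replicate 3. The log2 ratio of Tap1 to Tap2 was 0.78 higher in congenic kidneys on average (exact permutation p = 0.40, adjusted 0.62). Congenic replicate 2 stood at 1.41 above the mean of this ratio and congenic replicate 3 at -0.72, below every S rat.

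Tapbp, further along chromosome 20 with 20 protein-coding genes between it and Psmb9, read 479, 425 and 408 in S and 469.7, 349 and 389.9 in congenic rats. Congenic replicates 2 and 3 were below every S rat and congenic replicate 1 was within the S range. The log2 difference was -0.13 with an interval of -0.46 to 0.21 (limma, adjusted p = 0.813), and it stayed negative in all 16 refits, from -0.24 when congenic replicate 1 was left out to -0.03 when congenic replicate 2 was; it was -0.06 without S replicate 1. B2m read 20832, 20403 and 20680.4 in S and 19298, 22179 and 23792 in congenic rats. The S rats differed little, with a coefficient of variation of 1.05% against 10.5%, and the congenic rats lay on both sides of them. The log2 difference was 0.07 with an interval of -0.11 to 0.25 (limma, adjusted p = 0.803), and -0.03 after quantile normalisation. It was 0.0035 without congenic replicate 3 and 0.15 without congenic replicate 1. The other B2m probe set, also tested, ran from 3412 to 4378 in S and from 3933 to 4427 in congenic rats, a difference of 0.13 (limma, adjusted p = 0.664).

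The rats did not order the genes alike. Averaged over all 9 genes, the log2 deviation from each gene's own mean was 0.01, -0.09 and -0.06 in S replicates 1 to 3 and 0.08, -0.04 and 0.10 in congenic replicates 1 to 3. Congenic replicate 2 thus fell within the S range. Over the 8 tested genes, which leave out Tap2, the averages were -0.01, -0.10 and -0.10 in S and 0.09, 0.09 and 0.04 in congenic rats; no test is given for this score over chosen genes. Of the 9 genes, congenic replicate 3 held the highest value of 4, congenic replicates 1 and 2 of 2 each and S replicate 1 of 1 (Tapbp). The lowest values were spread over all 6 rats, with 2 each in S replicate 2, S replicate 3 and congenic replicate 2 and 1 in each other rat. The coefficient of variation was higher in congenic than in S rats for 6 of the 8 tested genes, beside 49.5% of all tested probe sets. By position, the 5 genes on chromosome 20 had 3 positive differences and a median of 0.06, and the 4 on other chromosomes had 4 and a median of 0.12.

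**Figure D3:**
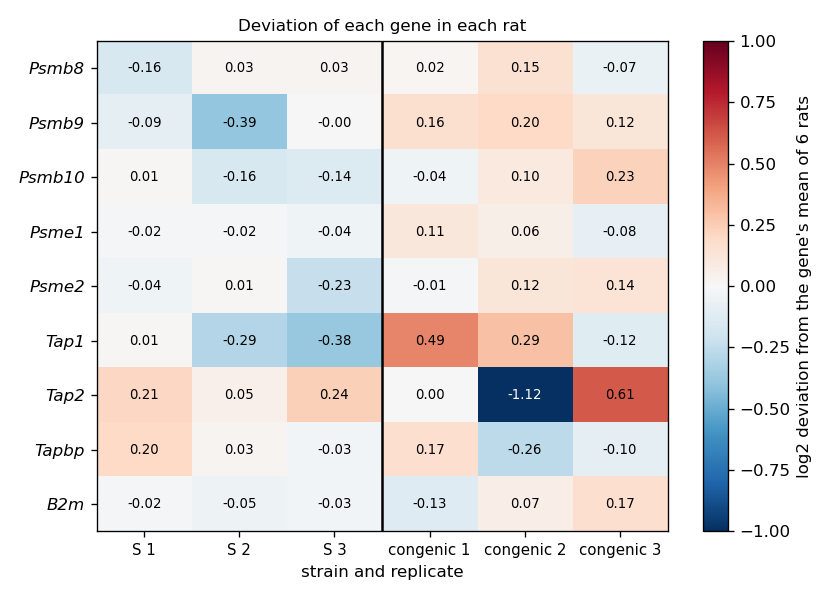
Log2 deviation of each gene from its own mean over the 6 rats (rows, genes; columns, S replicates 1 to 3 and congenic replicates 1 to 3; red above and blue below the mean). Psmb9 is below its mean in all S rats and above it in all congenic rats, and Tap2 spans -1.12 to 0.61 within the congenic strain.

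The rest of the pathway was described from lists of known genes, and 0 genes of any list passed limma's adjusted threshold. Among class I heavy chains and loading partners, 9 of 22 entries were tested, with 4 positive, a median log2 difference of -0.03 and 0 genes at unadjusted p below 0.05 in either direction. Their smallest p values belonged to the class I genes RT1-S3 (0.14), RT1-CE10 (-0.21) and RT1-T24-4 (-0.14); class I genes are close copies of each other, so probe sets may share their signal. Of the noncatalytic subunits of the proteasome core, all 11 were tested, 8 were positive and the median was 0.03. Psmb4 had 0.29 and Psma1 -0.27, the 2 at unadjusted p below 0.05, and Psma6 had 0.15.

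Psmd4, a ubiquitin receptor of the regulatory particle, read 1433, 1368 and 1292 in S and 1612, 1675 and 1669 in congenic rats. The strains did not overlap, and its log2 difference was 0.28 (limma, unadjusted p = 0.00824, adjusted p = 0.305). All 21 regulatory particle genes were tested, with 15 positive, a median of 0.09, and 2 higher and 0 lower at unadjusted p below 0.05, namely Psmd4 and the ATPase gene Psmc2 (0.18). Adrm1, the next in order of p, had -0.30. Of the other activators and assembly factors, 8 of 10 were tested and 7 were positive, with a median of 0.10; Psme3ip1 had 0.31 and was the 1 gene at unadjusted p below 0.05, and the assembly chaperone gene Psmg2 had 0.21 and Pomp, the maturation factor of the core, 0.08. No probe set with Psme3 as its only symbol was matched here.

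The genes that control this machinery gave 17 tested of 22, with 10 positive and a median of 0.01. Nfkb1, an NF-kB subunit gene, read 969, 948 and 731 in S and 1318, 1195 and 1052 in congenic rats. All congenic values were above all S values, with a log2 difference of 0.43 (limma, unadjusted p = 0.00433, adjusted p = 0.276). Ifngr1, the ligand-binding chain of the interferon gamma receptor, read 1325, 1313 and 1276 in S and 1635, 1454 and 1592 in congenic rats, again without overlap, and its log2 difference was 0.26 (unadjusted p = 0.0149, adjusted p = 0.366). These were the 2 genes higher at unadjusted p below 0.05, none was lower, and Creb1 had -0.31. Irf1, an interferon-induced activator of this gene set and named after its values were seen, had -0.01.

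Interferon-induced genes outside the group had 17 tested of 26, with 12 positive, a median of 0.19, and 4 higher and 0 lower at unadjusted p below 0.05. Irf7, a regulator of type I interferon genes, had 0.45, Ifi27 0.27 and Dtx3l 0.38. The other 5 tested genes of this list were negative, among them Rsad2 (-0.22) and Ifi44 (-0.15), named after their values were seen. Under the filter on low signals, Ifit1 had -0.45, Oas1a -0.22 and Cxcl9 0.82. Class II presentation genes had 9 tested of 11, with 7 positive and a median of 0.09; 1 gene, RT1-Bb, was higher at unadjusted p below 0.05 with 0.35, followed by the protease gene Ctss (0.16) and Ifi30 (0.09). These lists stand beside 48.2% positive, 4.72% higher and 5.61% lower among all tested probe sets.

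The level of immune cells was read from marker genes. Of 33 markers, 31 had a probe set, 16 were tested and 15 lay under the filter on low signals, among them the T cell genes Cd3d, Cd3e and Cd3g; 12 of the 16 were positive, with a median of 0.14, and at unadjusted p below 0.05 4 were higher and 0 lower, beside 48.2% positive, 4.72% higher and 5.61% lower among all tested probe sets. Their summed signal ran from 10921 to 12136 in S and from 12092 to 13759 in congenic rats, so that the strains overlapped. Much of that sum was Lyz2, with 5654, 5376 and 4971 in S and 5160.1, 5941 and 6686 in congenic rats. With the 16 genes weighted alike, the mean log2 deviation did not overlap. It was -0.0019, -0.08 and -0.11 in S and 0.04, 0.02 and 0.12 in congenic rats, and no test is given for it. The macrophage marker Cd68 had 0.63, Coro1a 0.43 and Fcer1g 0.24, while Ptprc, which encodes the common leukocyte antigen CD45 and is named after its values were seen, had -0.35. Other macrophage genes of the list, likewise named after their values were seen, differed from Cd68. Csf1r had -0.07 and Aif1 0.01, and C1qb had 0.36. Endothelial markers had 7 tested of 8, 4 positive and a median of 0.0021, with 1 higher and 0 lower at unadjusted p below 0.05. They were spread on both sides of 0, from 0.63 for Vwf, the 1 higher, to -0.32 for Flt1 and -0.42 for Ehd3. The 3 genes listed as erythrocyte markers were all negative, with a median of -0.42, although whole-kidney signal does not show which cells made their RNA. Hbb had -0.42 and Alas2 -0.55, the 2 lower at unadjusted p below 0.05, and Slc4a1 had -0.08. For each of the 3 the strains overlapped. The part of these cells in the differences of Psmb9 and Tap1 was not tested.

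**Figure D4:**
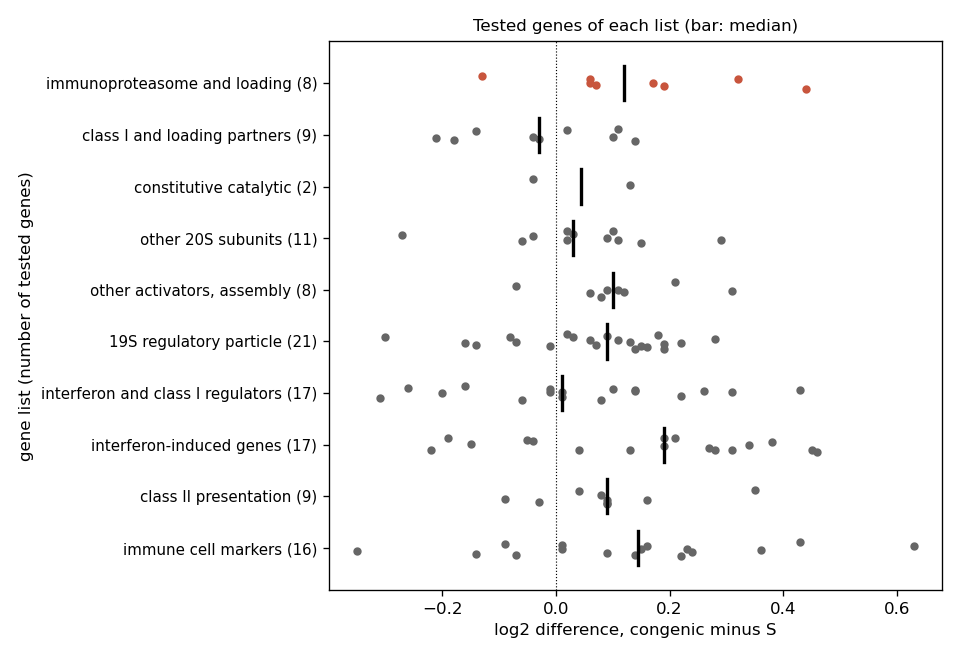
Log2 difference, congenic minus S, of every tested gene in the 8 genes of the group (red) and in 9 other lists (grey), with the median of each list as a bar; vertical scatter within a row has no meaning. The median of the group's 8 tested genes is 0.12, without Tap2, and 0.07 over all 9 genes. The filter kept Tap1 and left out Tap2 through their congenic values, so the 0.12 depends on it. Medians of the other lists run from -0.03 to 0.19, with 0.10 for other activators and assembly factors and 0.14 for immune cell markers. The kidney cell markers, not plotted, had a median of 0.12.

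The likeness of other genes to the mean pattern of the 8 tested genes over the 6 arrays, without Tap2, was measured by the root mean square difference of centred log2 signals among 9334 named genes. The nearest were Akr7a2 (0.017), Mrps24 (0.019), Nherf1 (0.020), Ndufa13 (0.021) and Fbxo7 (0.022), where the mean pattern itself had a size of 0.082. Akr7a2, an aldehyde reductase gene, read 10327, 9774 and 9727 in S and 11132, 11396 and 10568 in congenic rats. All 5 had non-overlapping strains, as did the mean pattern of 8 genes they were matched to. That separation depends on leaving out Tap2. Over all 9 genes congenic replicate 2, at -0.04, fell within the S range of -0.09 to 0.01.

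**Figure D5:**
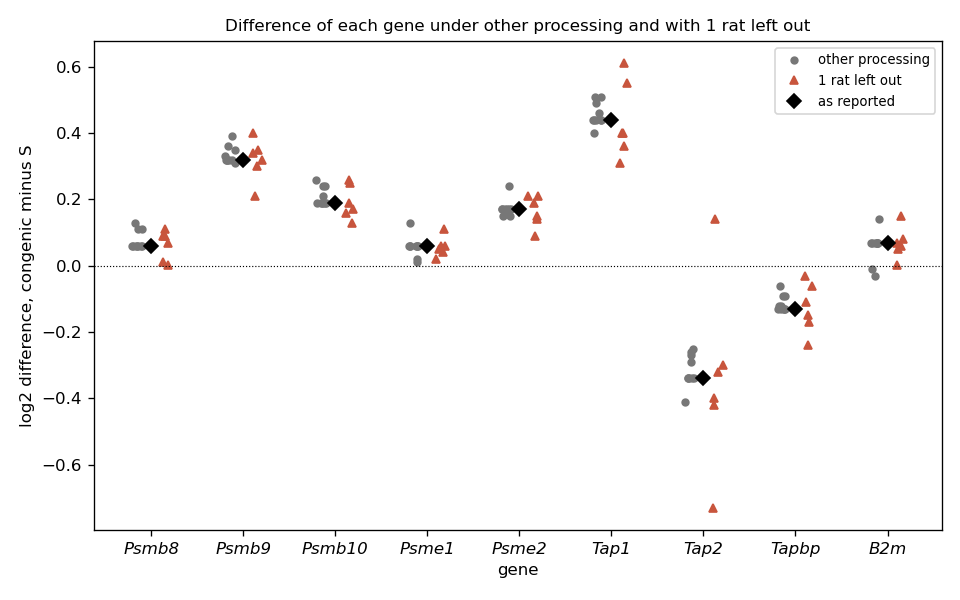
Log2 difference, congenic minus S, of each gene as reported (diamonds), under 10 other processing choices (grey circles) and with each of the 6 rats left out (red triangles). Psmb9 stays between 0.21 and 0.40 and Tap1 between 0.31 and 0.61, while Tap2 ranges from -0.73 to 0.14.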

How the data were processed

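The authors deposited linear intensities per probe set, made, per the submitters' processing notes, with GCOS 1.4; the sources used here give neither its settings nor detection calls. With 2% trimmed off at both ends the mean of every array was 500.2, which shows a common scale set before deposit, and no further normalisation was applied. The 57 control probe sets were left out. Signals under the 10th percentile (12.3) were raised to it, log2 was taken, and the 15521 of 31042 probe sets with a mean above the median were tested. Limma 3.58.1 in R 4.3.3 (lmFit, eBayes with trend; prior degrees of freedom 10.7) compared congenic with S, with Benjamini-Hochberg adjustment over all tested probe sets and a threshold of 0.05. Probe sets under the filter took values from the same fit without it. The median standard error was 0.14; precision is limited by having 6 arrays. The procedure was tested on simulated data.

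For a gene outside the group the tested probe set with the highest mean was used, with symbols updated through Entrez identifiers to GRCr8. Of all probe sets, 20826 had 1 symbol, 436 several and 9780 none; those with several were not named. Named are all 9 genes, their constitutive counterparts, up to 3 genes of smallest p per pathway list, and the 5 nearest in pattern. Some further genes of the lists were named after their values were seen. The genes and lists were chosen with earlier results of these data known. The labels give each array its own animal, and share no replicate numbers between strains. Alternatives covered the floor, a pseudocount of 16, the filter, normalisation, variance model, array weights, a title number covariate, probe set and each rat left out. Figures used matplotlib 3.10.9.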

Additional observations from a re-analysis of the deposited data

How the results depend on the processing

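No gene of the group reached an adjusted p below 0.05 in any of the 16 refits, and the sign held in all of them for 7 genes. Under cyclic loess B2m was -0.01 and under quantile normalisation -0.03, Tap2 ran from -0.73 to 0.14 with 1 rat left out, positive without congenic replicate 2, and the other Tap1 probe set gave -0.57. The count of 1 gene higher at unadjusted p below 0.05 was 2 after cyclic loess, with median centring and without the variance trend, 0 with the title number as a covariate, and 0 to 1 with 1 rat left out (0 without S replicate 1, S replicate 2, congenic replicate 1 or congenic replicate 2). The gene counted was not always the same. Without S replicate 3 it was Psmb9 (limma, unadjusted p = 0.0319). Without congenic replicate 3 it was Tap1 (limma, unadjusted p = 0.0253), and Psmb9 had 0.0673. Over all probe sets, median centring gave 8 higher and 1 lower at adjusted p below 0.05, against 0, and 1472 higher and 386 lower at unadjusted p below 0.05, against 732 and 870; without the low-signal filter, with 31042 probe sets tested, the latter were 1135 and 1325. With 1 rat left out, 0 to 16 were higher and 0 to 26 lower at adjusted p below 0.05, the most without S replicate 1. The cause of these changes was not tested. Median centring put 62.6% of tested probe sets above 0, against 48.2%. No paired analysis was possible because the labels share no replicate numbers between the strains. Without detection calls, low signals such as those of Tap1 and Tap2 could not be told from background.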
